A study of Mus musculus with 2 samples.

Results

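The neuropeptide genes of cortex and striatum, 10 of the 32285 genes listed, were followed through the neuron subtypes of the mouse forebrain: *Cck*, *Sst*, *Vip*, *Npy*, *Tac1*, *Tac2*, *Penk*, *Pdyn*, *Adcyap1* and *Nts*. They are a list of names, drawn up with earlier results of these data known, and no measured value enters the rule. Single-nucleus RNA sequencing was done on C57BL/6J male mice, 6 to 8 weeks old by the labels (older in the study's methods), 12 h after subarachnoid haemorrhage (SAH) by endovascular perforation, and on control mice that the labels call normal and the study's methods call sham. Each condition was 1 library made from 3 pooled mice, taken from the haemorrhagic hemisphere between bregma 2.34 mm and -2.18 mm. The libraries are named Normal and SAH here. With 1 library a condition there was no replicate, so no difference was tested. Every interval below is a 95% interval that covers counting error only.

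Neuropeptides are made as longer precursors that enzymes cut inside dense-core vesicles, and they are released mainly when a neuron fires strongly. They act on G-protein-coupled receptors of nearby cells and so modulate the fast transmission by glutamate and GABA. In cortex and striatum they are also the classical labels of neuron subtypes: somatostatin, vasoactive intestinal peptide and neuropeptide Y mark kinds of GABAergic interneuron, and the enkephalin precursor and the substance P precursor mark the indirect and direct pathway neurons of the striatum.

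The files held 12204 barcodes and 114970719 UMIs (unique transcript molecules) for Normal, and 18209 barcodes and 172604358 UMIs for SAH. After filters and removal of likely doublets, 10955 and 15536 nuclei were left, with a median of 6868 and 7839.5 UMIs. The study's text states other numbers of nuclei, with the larger number in the control group. Groups follow the labels throughout; an exchange of the libraries would turn the direction of every ratio below, and it was not tested. The libraries shared 78 barcode sequences, 0.639% of the Normal barcodes. Nuclei were clustered without the 10 genes and named from marker lists that hold none of them, which gave 17 named neuron subtypes with 4771 Normal and 6552 SAH nuclei, each subtype "-like" in what follows. The share of UMIs from ribosomal-protein genes was lower in SAH in 17 of 17 subtypes (median 0.218% against 0.147%), and the mitochondrial share in 16 of 17. Short genes were also lower: in somatostatin-type nuclei the median log2 ratio of SAH over Normal was -0.73 in genes under 2 kb and 0.22 in genes over 300 kb. All 10 neuropeptide genes are short, from 1386 bp (*Sst*) to 13280 bp (*Pdyn*), so the main ratios are set beside genes of like length. The part of RNA quality and of gene length in the ratios was not tested.

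Promoters of several of these genes are textbook targets of the cAMP response element-binding protein CREB, whose full site is the palindrome TGACGTCA and whose shorter form is TGACG. Of the 10 genes, 9 had a RefSeq promoter window (250 bases before to 50 after a start site, GRCm38.p6), and *Penk* had none. TGACG, which is part of the full site and was searched on both strands, stood in windows of 6 genes, while 20.8% of all 32851 windows held it. The full site stood in 1 of them, *Sst*, and in 1.79% of all windows. The stretches with those matches are printed 5′ to 3′ on the gene's strand, with the match in capitals (CGTCA is TGACG read on the other strand), because these are the genes whose levels are compared below.
Sst, chr16:23890874-23890903, minus strand, match 48 to 41 bases before the start: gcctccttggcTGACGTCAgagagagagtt
Cck, chr9:121495725-121495754, minus strand, match 47 to 43 bases before the start: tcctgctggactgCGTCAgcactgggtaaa
Vip, chr10:5639126-5639155, plus strand, match 79 to 75 bases before the start: gggatcactactgTGACGtctttcggggag
Tac1, chr6:7554851-7554880, plus strand, match 197 to 193 bases before the start: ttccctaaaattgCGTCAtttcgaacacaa
Tac1, chr6:7555005-7555034, plus strand, match 43 to 39 bases before the start: ggctctacaggctCGTCAcgcctgagataa
Adcyap1, chr17:93198913-93198942, plus strand, match 91 to 87 bases before the start: gggactaggatgcTGACGtcttttactgat
Nts, chr10:102490568-102490597, minus strand, match 166 to 162 bases before the start: aattagggaagatCGTCActttccatcaag
The windows of *Npy*, *Tac2* and *Pdyn* held none of these letters. A match is only a match of letters, and binding was not measured. In a GENCODE annotation of GRCm38, no gene overlaps 9 of the 10, and *Penk* (chromosome 4, 4133531 to 4138819, minus strand) overlaps *A830012C17Rik* on the other strand. By that annotation *Sst* and *Tac1* begin upstream of the RefSeq starts used for the matches. The *Sst* stretch and the *Tac1* stretch nearer the start thus lie within the gene spans given below.

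Most of the 10 genes were high in few of the named subtypes, *Cck* excepted. Levels are in CPM, the UMIs of the gene per 1000000 UMIs of the subtype's nuclei. With both libraries summed, *Sst* stood at 1387 CPM in somatostatin-type interneurons, which held 70.9% of its UMIs in all neurons. The next were reticular thalamic nuclei at 116.5 [99.2, 136] and hypothalamic-type GABA nuclei at 100.3 [93.6, 107], whose intervals overlapped. *Vip* stood at 3140 CPM in VIP and Sncg-type interneurons, with 91.8% of its neuronal UMIs, and at 11.1 in the next subtype, hypothalamic-type GABA nuclei. *Npy* was highest in Lamp5-type interneurons, at 481 [456, 507], and then in somatostatin-type interneurons, at 376 [362, 390]. The more numerous somatostatin-type nuclei held 43.9% of the neuronal *Npy* UMIs and the Lamp5-type nuclei 22.3%.

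*Penk* and *Tac1* were highest in spiny projection neurons, the output neurons of the striatum, at 502 [480, 525] and 203 [189, 218] CPM. The next for *Penk* were VIP and Sncg-type interneurons at 225 [207, 244]. For *Tac1* they were parvalbumin-type interneurons and hypothalamic-type GABA nuclei, at 65.4 [60.2, 70.9] and 64.2 [58.9, 69.9], which did not differ beyond counting error. *Tac2* was highest in VIP and Sncg-type interneurons (44.9% of its neuronal UMIs). *Pdyn* was highest in somatostatin-type interneurons, at 68.3 [62.5, 74.5], and next in spiny projection neurons, at 20.6 [16.4, 25.5]. *Adcyap1* was highest in subcortical excitatory nuclei (113 [98.2, 130]) and *Nts* in hypothalamic-type GABA nuclei (52.4 [47.6, 57.6]). These subtypes held 9.61% of the neuronal *Adcyap1* UMIs and 24.2% of the neuronal *Nts* UMIs. All 17 named subtypes together held 42% and 42.3%, so most UMIs of both genes lay in neurons outside them. Over the named subtypes *Cck* was spread widest. Its highest subtype, the VIP and Sncg-type interneurons at 202 [185, 219], held 4.49% of its neuronal UMIs, and upper layer cortical neurons at 80.6 [76.5, 85.0] held 11.4%.

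**Figure D1:**
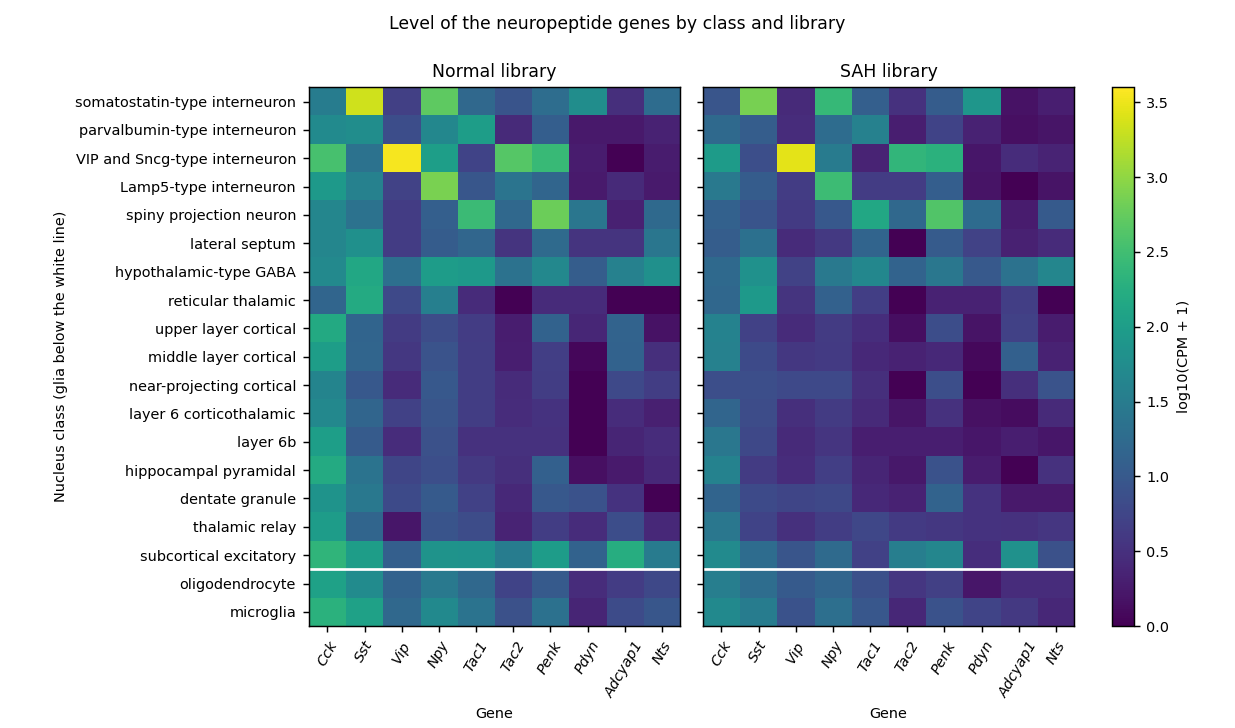
Level of each gene (columns) in each neuron subtype and, below the white line, in oligodendrocyte-like and microglia-like nuclei (rows), as log10(CPM + 1) by colour, for the Normal library on the left and the SAH library on the right. Most genes have their brightest cells in few rows, as *Sst* in somatostatin-type interneurons at 2181 CPM in Normal and 722 in SAH, while *Cck* spreads over nearly all rows.

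In SAH most of these levels were lower. A gene in a subtype was compared where it had at least 50 UMIs over both libraries, and was counted as lower or higher past 1.5-fold. Of the 170 pairs of gene and subtype, 70 had enough UMIs, and 57 of them were lower in SAH, 13 lay within 1.5-fold and 0 were higher. Over all genes in these subtypes 18% were lower and 8.87% higher, and among genes of 1 to 14 kb 41.7% were lower and 7.65% higher. The median log2 ratio was -1.37 over the 70 pairs, -0.14 over all genes and -0.47 over genes of 1 to 14 kb.

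Part of the 70 pairs lay near the level that glia hold. *Cck* and *Sst* UMIs, which oligodendrocytes and microglia should lack, were also found in those nuclei. In the 46 pairs with at least 3 times the UMIs per nucleus of these glia, 34 were lower, 0 were higher, and the median log2 ratio was -1.09. Each ratio was then set against 500 genes of the closest length in the same subtype, by subtracting their median (centring). So centred, 41 of the 70 pairs were lower and 3 higher, where 7.86% of all genes and 12.9% of genes of 1 to 14 kb were lower and 12.5% and 17.5% higher by the same rule. Among the 46 pairs above glia, 20 were lower, 3 were higher and 23 lay within 1.5-fold after centring, with a median of -0.49. Where few short genes had enough UMIs, the 500 genes took in longer ones, so the centring was looser. Reticular thalamic nuclei, for example, had 215 genes under 14 kb with enough UMIs.

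The genes were not alike. *Cck* was lower in 15 of 15 subtypes with enough UMIs, *Sst* in 13 of 13 and *Npy* in 11 of 11, and after centring on length in 15, 11 and 8. Many of these pairs lay near the glial level: only 6, 5 and 5 of them reached 3 times the glial UMIs per nucleus. In those the median log2 ratios were -1.94, -1.60 and -1.37, and -1.45, -0.95 and -0.91 after centring. *Pdyn* was past 1.5-fold in 0 of 3 and *Vip* in 1 of 2. *Penk* was lower in 6 of 9, and in 1 of 9 after centring. *Tac1* was lower in 4 of 6, *Adcyap1* in 4 of 5, *Tac2* in 2 of 4 and *Nts* in 1 of 2, and after centring in 2, 2, 0 and 1. Higher after centring were *Tac2* in 2 of 4 subtypes and *Pdyn* in 1 of 3.

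**Figure D2:**
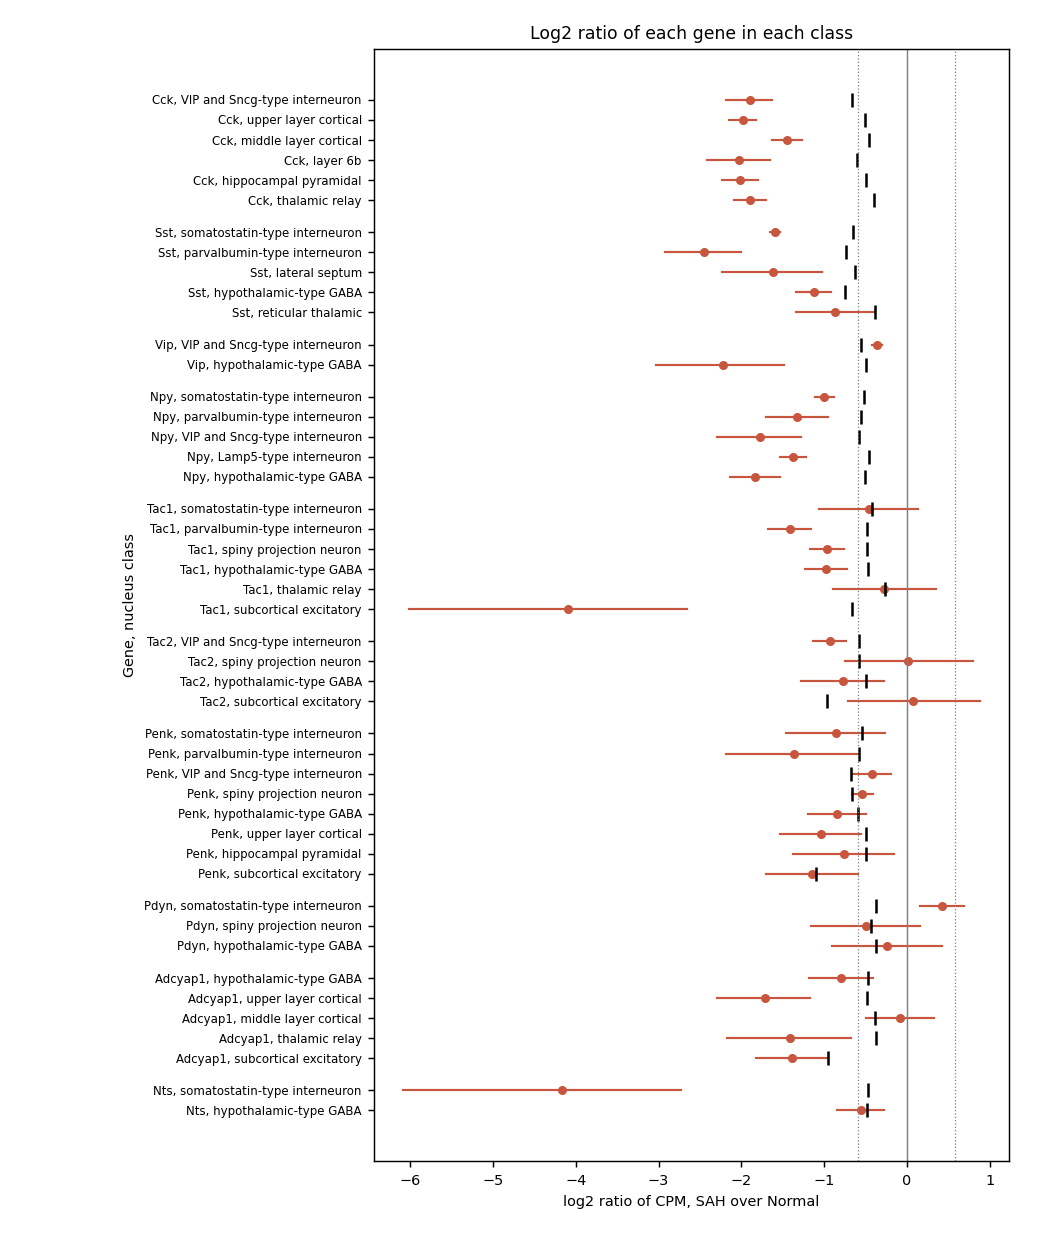
Log2 ratio of CPM, SAH over Normal (x axis), for the 46 pairs of gene and subtype (y axis) at 3 times the glial UMIs per nucleus or more. Points are ratios, red lines are 95% intervals for counting error only, black ticks are medians over 500 genes of closest length, and dotted lines mark 1.5-fold. Every point for *Cck*, *Sst* and *Npy* lies left of its black tick, and 1 point, *Pdyn* in somatostatin-type interneurons at 0.42, has its whole interval above 0.

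*Sst* (chromosome 16, 23889573 to 23890958, minus strand) encodes somatostatin, an inhibitory peptide of interneurons that mostly contact dendrites. The somatostatin-type cluster held 323 Normal and 362 SAH nuclei. *Sst* gave 7425 UMIs in Normal and 2938 in SAH, or 2181 [2132, 2231] and 722 [696, 749] CPM. The log2 ratio was -1.60 [-1.66, -1.53], and -0.95 after centring on length. The median nucleus held 15 UMIs in Normal and 5 in SAH, and the highest held 246 and 59. Nuclei with no *Sst* UMI made up 7.12% and 13.8%, so most nuclei still had the transcript in SAH, at lower counts. After thinning each nucleus to 1000 UMIs, 68.4% of Normal and 39.8% of SAH nuclei kept at least 1 *Sst* UMI, against 6.19% and 1.57% of oligodendrocyte-like nuclei. Those glia had median depths of 2141 and 2509 UMIs. The markers that named the cluster moved less: log2 ratios were -0.29 for *Lhx6*, 0.19 for *Sox6*, -0.66 for *Elfn1*, 0.29 for *Grin3a* and -0.26 for *Satb1*. After centring they ran from -0.53 (*Elfn1*) to 0.25 (*Grin3a*). Markers moved further in some other subtypes. Before centring, their log2 ratios ran from -1.20 to 0.04 in Lamp5-type interneurons and from -1.01 to 0.36 in parvalbumin-type interneurons. In hypothalamic-type GABA nuclei they ran from -1.12 to 0.23. They ran from -2.05 to 0.33 in layer 6b neurons and from -1.85 to 0.25 in thalamic relay neurons. In hippocampal pyramidal neurons they ran from -1.60 to -0.18, and in dentate granule neurons from -1.49 to 0.26. In VIP and Sncg-type interneurons they ran from -0.98 to 0.43, without *Sncg*. That gene was close to undetected in both libraries, at 0.877 CPM in Normal and with no UMI in SAH.

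*Sst* was lower in the other subtypes that held it well above glia. In reticular thalamic nuclei it stood at 159 CPM in Normal and 87.1 in SAH, with a log2 ratio of -0.87, and -0.49 after centring. That centring took in genes much longer than *Sst*, since only 215 genes under 14 kb had enough UMIs there. Hypothalamic-type GABA nuclei had 143 and 65.3 CPM, a log2 ratio of -1.13 [-1.34, -0.92], and -0.39 after centring. The top 10 of these nuclei held 47.6% of their *Sst* UMIs in Normal and 50% in SAH, which the interval does not take into account. In parvalbumin-type interneurons, at 4.05 times the glial UMIs per nucleus, the values were 56.9 and 10.4 CPM, a log2 ratio of -2.45 [-2.92, -2.01], and -1.72 after centring.

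*Npy* (chromosome 6, 49822710 to 49829507, plus strand) encodes neuropeptide Y, which dampens excitatory release and constricts vessels. In somatostatin-type interneurons it gave 1755 and 1052 UMIs, or 516 and 259 CPM, a log2 ratio of -1.0 [-1.11, -0.88], and -0.48 after centring, within 1.5-fold. The Lamp5-type interneurons, which include the neurogliaform cells of layer 1, held 134 Normal and 205 SAH nuclei. There *Npy* gave 917 and 510 UMIs, or 754 and 292 CPM, a log2 ratio of -1.37 [-1.53, -1.21], and -0.91 after centring. The highest Lamp5-type nucleus held 52 *Npy* UMIs in Normal and 24 in SAH. In VIP and Sncg-type interneurons *Npy* stood at 104 and 30.5 CPM, in hypothalamic-type GABA nuclei at 96.9 and 27.2, and in parvalbumin-type interneurons at 44.9 and 17.9. After centring the log2 ratios were -1.19, -1.33 and -0.77. Reticular thalamic nuclei also held *Npy*, with too few UMIs (20 and 10) to be compared. In somatostatin-type interneurons 18.8% of all genes, and 43.4% of those of 1 to 14 kb, were lower past 1.5-fold, and in Lamp5-type interneurons 14.6% and 42%.

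**Figure D3:**
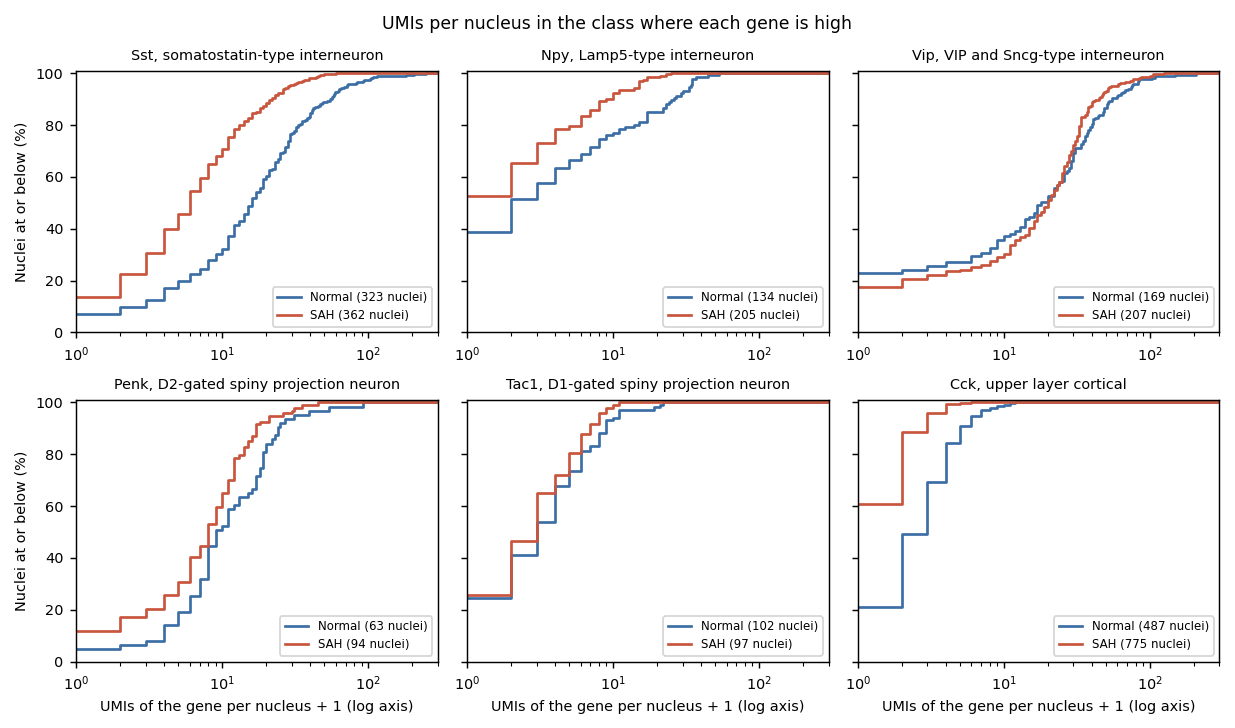
Share of nuclei at or below each number of UMIs of the gene (y axis, %; x axis, UMIs per nucleus + 1 on a log axis) in Normal (blue) and SAH (red), for 6 genes each in a subtype where it is high. The SAH curve lies to the left for *Sst* (median 15 against 5 UMIs), *Npy* and *Cck*, while for *Vip* the curves cross, with medians of 17 and 19 UMIs. Counts are not scaled for depth, and the VIP and Sncg-type nuclei had median depths of 5523 and 6949 UMIs.

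*Vip* (chromosome 10, 5639218 to 5647617, plus strand) encodes vasoactive intestinal peptide, made by interneurons that mainly inhibit other interneurons. The cluster had markers of VIP-type and of Sncg-type interneurons, with 169 Normal and 207 SAH nuclei. *Vip* gave 4106 and 4423 UMIs, or 3599 and 2807 CPM, a log2 ratio of -0.36 [-0.42, -0.30] that lay within 1.5-fold. Genes of like length had lower ratios, so that the centred value was 0.20. With nuclei weighted equally (mean CPM) the log2 ratio was -0.71, and with nuclei thinned to 1000 UMIs -0.64, both past 1.5-fold. The median nucleus held 17 *Vip* UMIs in Normal and 19 in SAH, and nuclei without a *Vip* UMI made up 23.1% and 17.4%. These counts are not scaled for depth, and the cluster's median depth was 5523 UMIs in Normal and 6949 in SAH. Of oligodendrocyte-like nuclei, 2.69% and 2.59% had a *Vip* UMI. The upper end was lower, with 207 UMIs in the highest Normal nucleus and 125 in the highest SAH nucleus. In this cluster 16.9% of all genes and 48.6% of genes of 1 to 14 kb were lower past 1.5-fold.

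By a gate on marker genes, the mix of nuclei in that cluster differed between libraries, which may touch every value from it. Sorted one by one by their marker lists, 127 Normal and 182 SAH nuclei were VIP-gated, and 36 and 20 were Sncg-gated. In the cluster the genes of the VIP gate had log2 ratios from -0.86 (*Calb2*) to 0.22 (*Prox1*). Those of the Sncg gate ran from -0.92 (*Npas1*) to -0.39 (*Col19a1*). *Sncg* itself was close to undetected in both libraries, at 0.877 CPM in Normal and with no UMI in SAH. The part of these shifts in the numbers of gated nuclei was not tested. In VIP-gated nuclei *Vip* stood at 3913 and 3146 CPM, a log2 ratio of -0.31. In Sncg-gated nuclei it stood at 2226 and 878 CPM, a log2 ratio of -1.34. *Cck* (chromosome 9, 121489824 to 121495694, minus strand), which encodes cholecystokinin and marks the Sncg-type basket cells among interneurons, gave 351 and 93.9 CPM in the whole cluster, a log2 ratio of -1.90 [-2.18, -1.63]. The top 10 nuclei of the cluster held 59.5% of its *Cck* UMIs in Normal and 47.3% in SAH. The highest Normal nucleus held 85 of 400, and the interval does not take this into account. *Cck* was lower in both gates, at 167 and 74.9 CPM in VIP-gated nuclei and at 839 and 217 CPM in Sncg-gated nuclei.

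*Tac2* (chromosome 10, 127724478 to 127731768, plus strand) encodes the precursor of neurokinin B. In VIP and Sncg-type interneurons it gave 504 and 365 UMIs, or 442 and 232 CPM. The log2 ratio was -0.93 [-1.13, -0.73], and -0.35 after centring, within 1.5-fold of genes of like length. Thinned to 1000 UMIs, 29.3% of Normal and 14% of SAH nuclei kept a *Tac2* UMI, while 47.9% and 37.2% had one at full depth. Of oligodendrocyte-like nuclei, 1.05% and 0.739% had a *Tac2* UMI at full depth. In spiny projection neurons *Tac2* gave 27 and 35 UMIs, at 15.4 and 15.6 CPM, a log2 ratio of 0.02, and 0.59 after centring. *Penk*, which encodes the enkephalin precursor, gave 301 and 310 UMIs in VIP and Sncg-type interneurons, or 264 and 197 CPM, a log2 ratio of -0.42 [-0.66, -0.19] and 0.25 after centring. Within 1 cluster the ratios thus ran from -0.36 for *Vip* and -0.42 for *Penk* to -0.93 for *Tac2*, -1.78 for *Npy* and -1.90 for *Cck*, and differences between genes were not tested.

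In the striatum, the spiny projection neuron cluster held 218 Normal and 245 SAH nuclei. *Penk* gave 1064 and 939 UMIs there, or 608 and 419 CPM, a log2 ratio of -0.54 [-0.67, -0.41], and 0.13 after centring. This value depended on how nuclei were assigned: where each nucleus was named on its own rather than by cluster, it was 0.71, with *Penk* higher in SAH. That naming put 859 Normal and 545 SAH nuclei in the class, far more than the cluster held and with more in Normal. Whether the added nuclei were spiny projection neurons was not tested. *Tac1* (chromosome 6, 7554879 to 7565834, plus strand), the substance P and neurokinin A precursor, gave 489 and 321 UMIs, or 280 and 143 CPM, a log2 ratio of -0.96 [-1.17, -0.76], which was -0.49 after centring and -0.04 with nuclei named on their own, both within 1.5-fold. In this cluster 20% of all genes and 48.5% of genes of 1 to 14 kb were lower past 1.5-fold.

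By dopamine receptor lists, 102 Normal and 97 SAH nuclei of that cluster were D1-gated (direct pathway) and 63 and 94 were D2-gated (indirect pathway), so the share of D2-gated nuclei was larger in SAH. Another 53 and 54 nuclei fell in neither gate. The gates used no neuropeptide gene, but their own genes moved. Log2 ratios ran from -2.21 (*Slc35d3*) to -0.41 (*Sfxn1*) for the D1 gate and from -0.62 (*Gpr6*) to 0.65 (*Drd2*) for the D2 gate. The part of these shifts in the gated values was not tested. In D2-gated nuclei *Penk* gave 815 and 794 UMIs, or 1279 and 824 CPM, a log2 ratio of -0.63 [-0.78, -0.49]. In D1-gated nuclei it stood at 195 and 98.6 CPM, and 29.4% and 26.8% of them had a *Penk* UMI. *Tac1* gave 334 and 231 UMIs in D1-gated nuclei, or 378 and 250 CPM, a log2 ratio of -0.60 [-0.84, -0.35], and 33.0 and 14.5 CPM in D2-gated nuclei. Both genes were thus lower in SAH in the gated nuclei of the pathway that each marks, by close to the 1.5-fold limit. Centred on length the ratios were -0.21 for *Penk* and -0.12 for *Tac1*. Outside the striatum, *Tac1* in parvalbumin-type interneurons, fast-spiking cells that contact cell bodies, gave 405 and 183 UMIs, or 99.3 and 37.3 CPM, a log2 ratio of -1.41 [-1.67, -1.16] and -0.93 after centring. There 20.9% of all genes, and 47% of those of 1 to 14 kb, were lower past 1.5-fold.

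*Pdyn* (chromosome 2, 129686565 to 129699844, minus strand) encodes the dynorphin precursor, known as a product of direct pathway neurons and of some somatostatin interneurons. Among the 70 pairs with enough UMIs, it gave the only interval that lay wholly above 0. In somatostatin-type interneurons it gave 196 UMIs in Normal and 314 in SAH, or 57.6 [49.8, 66.2] and 77.2 [68.9, 86.2] CPM. The log2 ratio was 0.42 [0.16, 0.69], within 1.5-fold, and 0.80 after centring. At least 1 *Pdyn* UMI was found in 22.0% and 25.4% of these nuclei and in 0.374% and 0.185% of oligodendrocyte-like nuclei, and the highest nucleus held 19 and 16 UMIs. In the same nuclei *Sst* and *Npy* were lower. Of the *Pdyn* UMIs in somatostatin-type interneurons, the top 10 nuclei held 39.8% in Normal and 33.4% in SAH. The interval does not take this into account. In spiny projection neurons *Pdyn* gave 43 and 39 UMIs, a log2 ratio of -0.50 [-1.16, 0.16], and in D1-gated nuclei 35 and 30 UMIs, so no difference was detectable there at this depth.

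*Cck* was lower across excitatory neurons and interneurons. In upper layer cortical neurons (487 Normal and 775 SAH nuclei) it gave 962 and 430 UMIs, or 154 and 39.0 CPM, a log2 ratio of -1.99 [-2.15, -1.82] and -1.48 after centring. In this subtype 19.6% of all genes and 38.5% of genes of 1 to 14 kb were lower past 1.5-fold. Nuclei without a *Cck* UMI made up 21.1% in Normal and 60.6% in SAH. Hippocampal pyramidal neurons had 156 and 38.7 CPM, a log2 ratio of -2.01, and thalamic relay neurons 96.8 and 26.0 CPM, a log2 ratio of -1.90. Markers of those 2 subtypes had log2 ratios from -1.60 to -0.18 and from -1.85 to 0.25. Over the 15 subtypes with enough UMIs the *Cck* log2 ratio ran from -2.40 in dentate granule neurons to -1.45 in middle layer cortical neurons, and after centring from -1.81 to -0.99.

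Glia showed the same direction. Oligodendrocyte-like nuclei had 113 and 33.7 *Cck* CPM, a log2 ratio of -1.74, and microglia-like nuclei 198 and 51.0 CPM, a log2 ratio of -1.96. Per nucleus, oligodendrocytes held 0.272 and 0.0928 *Cck* UMIs, where upper layer neurons held 1.98 and 0.555. For *Sst* the log2 ratio was -1.56 in oligodendrocyte-like and -1.86 in microglia-like nuclei. Thinned to 1000 UMIs, 16.6% of Normal and 3.87% of SAH upper layer nuclei kept a *Cck* UMI, while 17.9% and 4.30% of microglia-like nuclei did. By this share the cortical neurons were not above microglia. Median depths before thinning were 11009 and 13126 UMIs in upper layer nuclei and 1371.5 and 1714.5 in microglia-like nuclei. Thinning thus took far more from the neurons, and this share cannot show how much of their *Cck* was free RNA. At full depth, with both libraries summed, upper layer nuclei held 6.49 times the glial *Cck* UMIs per nucleus. Thinning left out 244 Normal and 76 SAH microglia-like nuclei that were too shallow. With the glial UMIs per nucleus subtracted, 53 pairs were lower and 3 higher past 1.5-fold, and some pairs were left with no value. The part of free RNA in the *Cck* ratios was not tested beyond that subtraction.

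**Figure D4:**
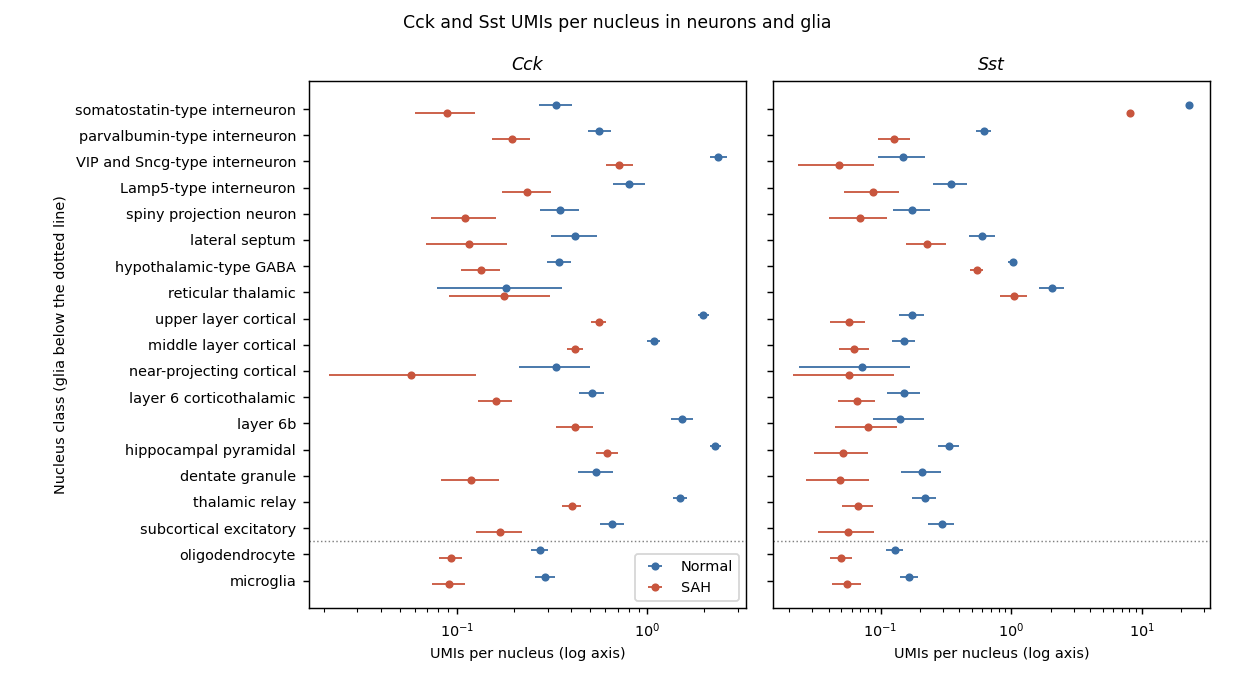
UMIs per nucleus (x axis, log) of *Cck* on the left and *Sst* on the right, in each neuron subtype and, below the dotted line, in glia (y axis), for Normal (blue) and SAH (red), with 95% Poisson intervals. *Cck* is lower in SAH in neurons and glia alike, at 1.98 and 0.555 in upper layer neurons and 0.272 and 0.0928 in oligodendrocytes, while *Sst* in somatostatin-type interneurons (23.0 and 8.12) stands far above glia in both libraries.

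*Adcyap1* (chromosome 17, 93199017 to 93206537, plus strand) encodes PACAP, a peptide of excitatory neurons that raises cAMP in its targets. In upper layer neurons it gave 80 and 43 UMIs, or 12.8 and 3.90 CPM, a log2 ratio of -1.72 [-2.29, -1.17], and -1.24 after centring. In middle layer neurons it gave 85 and 123 UMIs, or 12.5 and 11.7 CPM, a log2 ratio of -0.09 [-0.50, 0.33], and 0.30 after centring. These intervals did not overlap, although the difference between the layers was not tested over mice. In subcortical excitatory nuclei *Adcyap1* stood at 174 and 66.3 CPM, a log2 ratio of -1.39, but this cluster was shallow (median 1502.5 and 1852.5 UMIs), its ribosomal-protein share was 0.559% and 0.246%, and its ratio was -0.44 after centring. The class also depended on the setting. It held 270 Normal and 322 SAH nuclei here, 81 and 55 without integration, 1397 and 1737 with stricter filters, and 0 at the coarser resolution. Over the alternatives the *Adcyap1* ratio ran from -2.59 to -0.44.

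*Nts* (chromosome 10, 102481756 to 102490486, minus strand) encodes neurotensin, which acts on dopamine neurons and their targets. In hypothalamic-type GABA nuclei it gave 239 and 197 UMIs, or 63.7 and 43.2 CPM, a log2 ratio of -0.56 [-0.84, -0.28], and -0.08 after centring. The top 10 nuclei held 70.3% of these *Nts* UMIs in Normal and 52.3% in SAH, and the highest Normal nucleus held 50. Nuclei without an *Nts* UMI made up 91.6% and 90.3%. The interval does not take this into account. The *Nts* ratio passed 1.5-fold without doublet removal (-1.20), without integration (-1.25) and at a coarser clustering resolution (-1.0). In those settings the class held other nuclei: 751 Normal and 784 SAH, 887 and 721, and 938 and 883. The main setting held 524 and 548. In somatostatin-type interneurons the lower value in SAH, 60 UMIs against 4, rested on 1 Normal nucleus that held 49 of the 60, and *Nts* was found in 10 Normal and 4 SAH nuclei.

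Genes were also found together in the same nuclei. Among somatostatin-type nuclei with an *Sst* UMI, 69.0% [63.4, 74.2] in Normal and 58.0% [52.3, 63.6] in SAH also had an *Npy* UMI, and 23.7% [19.0, 28.9] and 28.5% [23.6, 33.9] a *Pdyn* UMI. Of the nuclei with a *Vip* UMI in the VIP and Sncg-type cluster, 56.9% [48.0, 65.6] and 41.5% [34.0, 49.3] had *Tac2*, and 43.8% [35.2, 52.8] and 52.0% [44.3, 59.7] had *Penk*. In D2-gated nuclei with *Penk*, *Tac1* was found in 5.00% and 4.82%, and in D1-gated nuclei with *Tac1*, *Penk* was found in 20.8% and 15.3%. Nuclei of that cluster without a *Vip* UMI had *Tac2* in 17.9% and 16.7%, and *Penk* in 43.6% and 44.4%. In Normal *Penk* was thus about as frequent with *Vip* as without it. The share with *Penk* among *Vip* nuclei was higher in SAH, with overlapping intervals, although the *Penk* level of the cluster was lower. These shares are at full depth, and the cluster's median depth was 5523 UMIs in Normal and 6949 in SAH. The pathway split of *Penk* and *Tac1* was present in both libraries, but it was partial in D1-gated nuclei. Of those without a *Tac1* UMI, 56% in Normal and 60% in SAH had *Penk*.

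**Figure D5:**
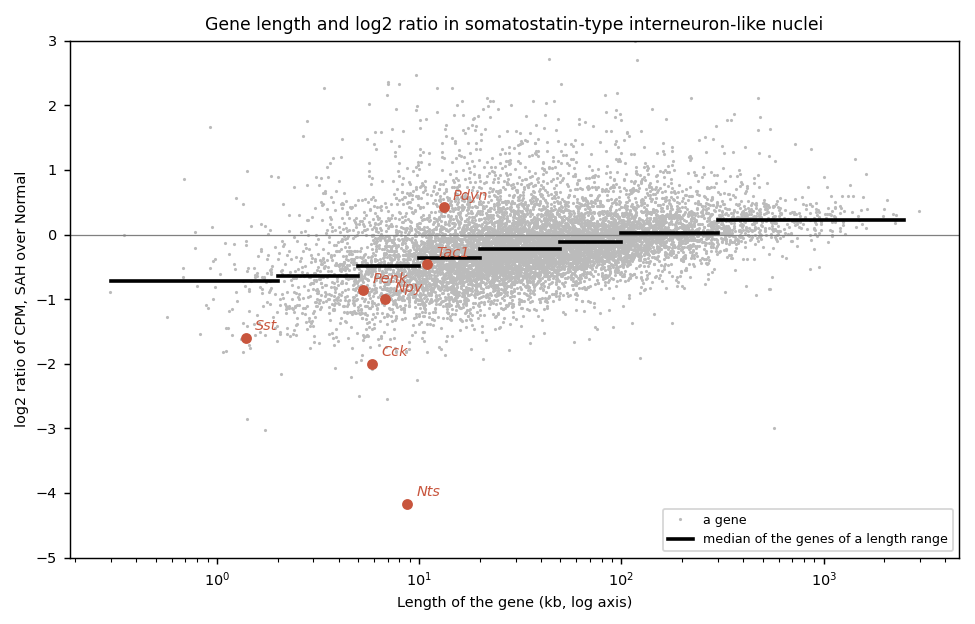
Gene length (x axis, kb, log) and log2 ratio of CPM, SAH over Normal (y axis), in somatostatin-type interneurons, where each grey point is a gene, black bars are medians of length ranges and red points are the neuropeptide genes. *Sst* at -1.60 lies below the median of -0.73 of genes under 2 kb, and *Pdyn* at 0.42 lies above the median of genes of its length.

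By pattern across the 34 neuron clusters with at least 50 nuclei, both libraries summed, each gene's closest genes were found from Pearson's r of log2(CPM + 1), as a description. For *Sst* the closest was *Chodl* (r = 0.784), for *Vip* *Htr3a* (0.891), *Grpr* (0.882) and *Slc5a7* (0.878), and for *Tac2* *Grpr* (0.878). *Slc5a7* also led a cholinergic cluster, whose 19 Normal and 26 SAH nuclei were too few to enter here. Among named subtypes *Vip* was high in 1, at 3140 CPM against 11.1 in the next, and that cluster weighs heavily in its r values. *Penk* was closest to *A830012C17Rik* (0.938), the gene that overlaps it on the other strand, and *Tac2* was the third at 0.756. *Cck* was closest to *Sorcs3* (0.666), *Npy* to *Gm3143* (0.857), *Tac1* to *Gm34081* (0.851), *Pdyn* to *Ccdc187* (0.743), *Adcyap1* to *Syt4* (0.752) and *Nts* to *Dlk1* (0.871). The clusters share 2 libraries and differ in depth.

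Genes that process, store or receive neuropeptides were counted from lists over the same subtypes. Of 264 pairs of processing and storage gene and subtype with enough UMIs, 103 were lower and 4 higher past 1.5-fold, and after centring on length 49 and 4. Before centring 18% of all genes, and 41.7% of genes of 1 to 14 kb, were lower and 8.87% and 7.65% higher. After centring 7.86% and 12.9% were lower and 12.5% and 17.5% higher. *Vgf*, a granin-like cargo of dense-core vesicles, was lower in 15 of 15 subtypes, at 182 and 31.2 CPM in somatostatin-type interneurons (log2 ratio -2.54). *Ptprn*, a vesicle membrane protein, was lower in 16 of 17, *Chga* in 14 of 17 and *Scg2* in 13 of 17, whereas *Pcsk2*, a convertase that cuts the precursors, was lower in 0 of 17, with log2 ratios from -0.29 to 0.44. The values of single genes in this paragraph are not centred on length, and ratios were lower in short genes. The part of gene length in the differences between these genes was not tested. Of 111 pairs for receptors, 32 were lower and 11 higher, and after centring 20 and 12. *Npy1r*, the main postsynaptic neuropeptide Y receptor, was lower in 6 of 10 subtypes, and *Oprk1*, the dynorphin receptor, was higher in 3 of 4, at 6.17 and 12.5 CPM in somatostatin-type interneurons. *Oprm1*, the mu opioid receptor, was higher in 3 of 16, with 97.9 and 179 CPM in upper layer neurons. Of 21 pairs for other neuropeptide genes, 17 were lower and 0 higher, and after centring 8 and 3. Among the lower was *Cort* (cortistatin) in somatostatin-type interneurons at 57.9 and 7.13 CPM.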

How the data were processed

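The deposited files held counts: UMI counts per gene and barcode in 1 matrix for each of the 2 libraries, made by the authors with Cell Ranger against mm10 with introns included. The version is 5.0.0 in the submitters' processing notes and 6.1.2 in the file headers. Nothing was normalized by the authors in these files. The numbers of nuclei that the study's text states differ from the barcodes in the files and stand in the opposite order. The labels name the control mice normal and the study's methods name them sham.

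Nuclei with 300 to 7000 genes, under 10% mitochondrial and under 3% haemoglobin UMIs and under 100000 UMIs were kept. Doublets were removed by Scrublet score (scanpy 1.11.5), at 0.8% per 1000 nuclei. Nuclei were integrated and clustered in Seurat 5.3.0 (R 4.3.3) on 2000 variable genes without the 10 neuropeptide genes, with 25 components and a resolution of 1.2. A cluster was named from marker lists that hold none of the 10, so names are rebuilt and not the authors' own, and clusters without a clear name were left out of the counts. A difference from the study can come from these names.

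CPM came from summed UMIs, with exact Poisson intervals, ratios had exact conditional binomial intervals, and shares had exact binomial intervals, all at 95% and for counting error only (Python 3.11.15, scipy 1.17.1). UMIs from 1 pool of mice do not measure the spread between mice. With 1 library a condition no test was run. A pair of gene and subtype counted as past the fold at 1.5-fold with 50 UMIs over both libraries. The ratio code was tested on simulated counts. The genes, the gene lists and the tests were chosen with earlier results of these data known. The text names the 10 genes, members of the lists of related genes past 1.5-fold (with *Pcsk2* named after its values were seen), and each gene's closest genes by correlation over clusters. The D1, D2, VIP and Sncg gates, centring on gene length and subtraction of glial UMIs were added after the data were seen. Alternatives changed the filters, doublet removal, integration, resolution, clustering genes, naming nucleus by nucleus, mean CPM over nuclei, thinning, centring, the UMI minimum and the fold. Sequences came from RefSeq promoter windows, in which 9 of 10 symbols matched. Gene positions and lengths came from a GENCODE annotation of GRCm38, which may differ from the annotation the authors counted with.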

Additional observations from a re-analysis of the deposited data

Results flagged for a closer look

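*Pdyn*, the dynorphin precursor, went in different directions in different subtypes. Its log2 ratio of SAH over Normal was 0.42 in somatostatin-type interneurons, with an interval above 0, and -0.50 [-1.16, 0.16] in spiny projection neurons, where it rested on 43 and 39 UMIs. The hypothalamic-type GABA nuclei lay between, at -0.25 on 40 and 41 UMIs. The difference between subtypes was not tested, since each condition is 1 library, and the interval in spiny projection neurons includes 0. In the somatostatin-type nuclei the *Pdyn* ratio ran from 0.20 to 0.80 over the alternatives tried. There the top 10 nuclei held 39.8% of the *Pdyn* UMIs in Normal and 33.4% in SAH, which the interval does not take into account.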

How the results depend on the processing

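The count of 57 pairs lower in SAH became 17 with nuclei thinned to 1000 UMIs, 24 with a minimum of 200 UMIs and 111 with no minimum. Under the other alternatives it ran from 41 (centred on length) to 81 (a minimum of 20 UMIs). The UMI minimum sets how many pairs are compared, and thinning leaves fewer UMIs. The pairs compared are not given for each alternative, so these counts alone do not show whether ratios weakened. After thinning, *Tac1* in spiny projection neurons went from -0.96 to -1.57 and *Vip* in its cluster from -0.36 to -0.64. *Penk* in spiny projection neurons went from -0.54 to -0.45, and *Nts* in hypothalamic-type GABA nuclei from -0.56 to -0.30. The count of 0 higher became 3 without doublet removal, 1 with stricter filters, 1 without integration, 5 with nuclei named one by one, 1 with ratios centred on the median gene, 3 with a minimum of 20 UMIs, 17 with no minimum, 1 at the smaller fold, 3 centred on length and 3 with glial UMIs subtracted. The ratio changed sign after thinning for *Sst* in Lamp5-type (0.0072), *Npy* in hippocampal pyramidal (0.89) and *Penk* in somatostatin-type nuclei (0.42), and after glial subtraction for *Sst* in layer 6 corticothalamic (0.95) and middle layer nuclei (0.66) and *Npy* in upper layer nuclei (1.05). These pairs are low in UMIs or near the glial level. Pairs within 1.5-fold also changed sign, among them *Penk* in spiny projection neurons (0.71 named one by one, 0.13 centred on length) and in VIP and Sncg-type nuclei (0.25 centred), and *Vip* in the latter (0.20 centred). The value of 0.71 came from a class of 859 Normal and 545 SAH nuclei, where the cluster held 218 and 245. The cause was not tested. No paired analysis was possible because each condition has 1 library, and for the same reason no library could be left out. With 3 pooled mice in 1 library, differences between mice, between libraries and between conditions cannot be told apart. Genes of few UMIs, such as *Pdyn* in spiny projection neurons, could show only large differences at this depth.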

Other observations

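A neuron cluster that no marker list named also carried these genes. In this cluster, led by *Ebf1*, *Otx2os1* and *Klhl1* (1118 Normal and 1363 SAH nuclei), *Nts* stood at 38.7 CPM in Normal and 15.5 in SAH, a log2 ratio of -1.33, and *Adcyap1* at 27.9 and 15.3, a ratio of -0.86. *Penk* there stood at 45.4 and 36.7 CPM, a ratio of -0.31. This cluster has no cell type name here, and its counts stand outside those of the report.

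Among the other neuropeptide genes of the lists, *Pnoc*, the nociceptin precursor, was lower past 1.5-fold in 6 of 6 subtypes with at least 50 UMIs, and *Crh*, the corticotropin-releasing hormone gene, in 2 of 2, against 18% of all genes and 41.7% of genes of 1 to 14 kb. Over the 8 genes of that list, 17 of 21 pairs were lower and 0 higher, and after centring on length 8 were lower and 3 higher. After centring, 7.86% of all genes and 12.9% of genes of 1 to 14 kb were lower, and 12.5% and 17.5% higher.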
